A study of Flaveria robusta and Flaveria ramosissima and Flaveria trinervia with 18 samples.

Results

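The most abundant leaf transcripts shared by 3 species of Flaveria were described here. They were taken as the rows of the deposited table whose mean reached at least 500 TPM (a transcript abundance corrected for transcript length and expressed relative to its library's total) in each of F. robusta, F. ramosissima and F. trinervia. A species mean covered 6 libraries, from both light levels. The rule selected 80 of 30040 rows. The levels of these 80 members, and how they differ between the species, are therefore a description of measured values that chose them, and no test was run on them. The change with light was not used by the rule and was tested.

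F. robusta, F. ramosissima and F. trinervia are related species of 1 genus of the daisy family that differ in how they fix carbon. F. robusta is a C3 plant, F. ramosissima a C3–C4 intermediate and F. trinervia a C4 plant. RNA came from newly expanded mature leaves of plants under high light, of 1400 µmol photons m−2 s−1, or under control light, of 500 µmol photons m−2 s−1, with 3 libraries in each of 6 groups and 18 in all. The growth text also gives a chamber light below both levels, and no source used here states for how long plants were exposed to high light. The labels do not say that replicates were separate plants, so the p-values cover the spread between these libraries, part or all of which may be technical. No allele, transgene or other treatment is named for any group.

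In a mature leaf, a small number of nuclear transcripts commonly makes up a large part of the messenger RNA. They include those for the small subunit of Rubisco, which fixes CO2, and for the chlorophyll-binding proteins that collect light. In C4 leaves, transcripts of the enzymes that fix CO2 first in the mesophyll and release it in the bundle sheath are also very abundant, and those of photorespiration are commonly lower than in C3 leaves. The files number the rows and pair no number with a gene name, so none of the members can be assigned to any of these functions, the leaf tissue cannot be checked against marker genes, and no sequence can be shown. Leaves were measured whole, so fewer cells of a type and less RNA per cell cannot be told apart at any value below.

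Libraries differed in how closely they followed their replicates. Pairs of libraries were compared on log2(TPM + 1), using only rows that averaged 5 TPM or more within their species. Replicates correlated at r = 0.859 to 0.965 in F. robusta, 0.833 to 0.890 in F. ramosissima and 0.923 to 0.994 in F. trinervia. In F. trinervia, high light 1 and 3 (r = 0.994) and control 1 and 2 (r = 0.991) were closer to each other than any other pair. Among the high light libraries of F. robusta, replicate 2 stood apart, with r = 0.859 and 0.890 to the others, and among its control libraries replicate 3 had the lower values (0.874 and 0.885). The listed TPM summed to between 903641 and 929124 per library, and read depth is unknown because TPM does not keep it.

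The shared members made up a minority of the abundant rows of each species. A mean of 500 TPM was reached by 182 rows in F. robusta, of which the members were 44.0%, by 242 rows in F. ramosissima (33.1%) and by 204 rows in F. trinervia (39.2%). Of the 383 rows that reached it in at least 1 species, 52 did so solely in F. robusta, 99 solely in F. ramosissima and 67 solely in F. trinervia. A further 35 rows missed it only in F. robusta, 22 only in F. ramosissima and 28 only in F. trinervia. Just inside the threshold, the lowest species means were 504 TPM for Gene18455 (F. ramosissima), 505 TPM for Gene23227 (F. robusta) and 507 TPM for Gene22391 (F. trinervia). Just outside it were Gene07555 at 487 TPM (F. trinervia), Gene01989 at 480 TPM (F. ramosissima) and Gene22677, also at 480 TPM (F. ramosissima). Of the 80 members, 57 were at or above 500 TPM in all 18 libraries and 23 fell below it in at least 1 library. A threshold of 250 TPM would have selected 170 rows and one of 1000 TPM would have selected 44.

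A few members carried a large part of the shared abundance. Gene17659 had the highest mean of the 3 species means, with 34604 TPM in F. robusta, 33175 TPM in F. ramosissima and 17440 TPM in F. trinervia. It ranked 1 of all rows in F. robusta, 1 in F. ramosissima and 4 in F. trinervia. Gene14178 followed, with 30946, 13943 and 30660 TPM in F. robusta, F. ramosissima and F. trinervia and ranks of 2, 4 and 2. Among the members, 3 different ones were highest in single libraries of F. robusta, Gene17659 was highest in all 6 libraries of F. ramosissima and Gene14178 in all 6 of F. trinervia.

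Gene02292 averaged 28532 TPM in F. robusta, 23602 TPM in F. ramosissima and 14482 TPM in F. trinervia. Gene23665 averaged 23646, 12689 and 22316 TPM in the same species. Gene17659, Gene14178, Gene02292 and Gene23665 were the 4 rows found among the 10 highest of all 3 species. The member with the fifth highest mean, Gene04349, was of another kind. It averaged 30515 TPM in F. robusta, where it ranked 3, 10044 TPM in F. ramosissima, where it ranked 8, and 872 TPM in F. trinervia, where it ranked 127.

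**Figure D1:**
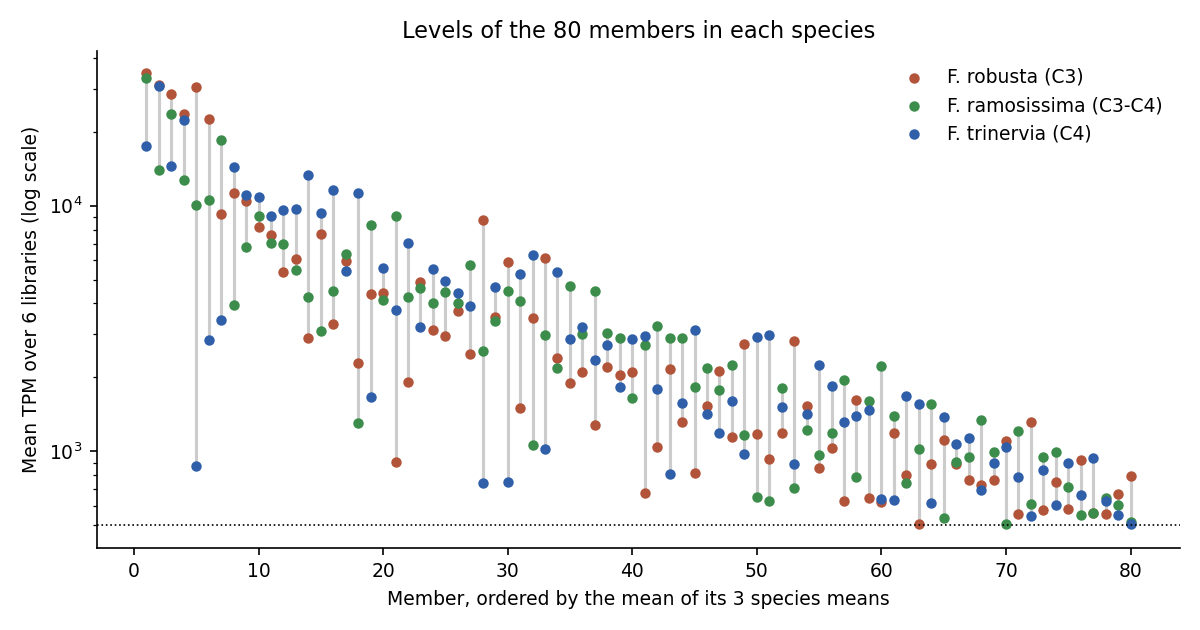
Mean TPM over 6 libraries (log scale) of each of the 80 members in F. robusta, F. ramosissima and F. trinervia, ordered by the mean of the 3 species means, with a grey line from the lowest to the highest species mean and a dotted line at the 500 TPM of the rule. The levels run from 34604 TPM down to the threshold, and the longest line, at position 5, is Gene04349 with 872 TPM in F. trinervia against 30515 TPM in F. robusta.

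Not every row at the top of a species was a member. In each species 8 of the 10 highest rows were members. The exceptions, named after their values were seen, were Gene00282 and Gene08581 in F. robusta, Gene16504 and Gene08581 in F. ramosissima, and Gene00137 and Gene19186 in F. trinervia. Gene00137, at 336 TPM in F. robusta and 2825 TPM in F. ramosissima, was the highest row of F. trinervia at 34028 TPM. Gene08581 went the other way, with 17859 TPM in F. robusta, 9468 TPM in F. ramosissima and 0.593 TPM in F. trinervia. Among the 50 highest rows, 35 were members in F. robusta, 39 in F. ramosissima and 37 in F. trinervia, and 24 members were among the 50 highest rows of all 3 species.

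Together the members held between 32.9 and 47.3% of the listed TPM in every library. Under high light the share was 33.9, 47.3 and 36.6% in the libraries of F. robusta, against 37.4, 43.4 and 41.5% under control light. In F. ramosissima it was 34.1, 37.6 and 34.7% under high light, against 32.9, 37.2 and 34.1% under control light. In F. trinervia it was 36.5, 35.1 and 36.3% under high light, against 37.6, 38.9 and 35.9% under control light. The light groups overlapped in all 3 species, and the library with the highest share of all was the high light replicate 2 of F. robusta.

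The mean share under high light was 39.3% ± 7.09 in F. robusta, against 40.8% ± 3.06 under control light (SD, n = 3 each), a difference of −1.51 points. The difference ran from −5.52 points without high light replicate 2 to 1.19 points without high light replicate 1, so its sign rested on single libraries. In F. ramosissima the mean share was 35.4% ± 1.90 under high light and 34.8% ± 2.19 under control light, a difference of 0.694 points that turned negative without high light replicate 2 (−0.387) or control replicate 1 (−0.217). In F. trinervia it was 36.0% ± 0.728 and 37.4% ± 1.51, a difference of −1.49 points that stayed negative without any 1 library (−2.27 to −0.763). None of these differences was larger than the larger SD of its pair of groups. Being a sum over chosen members, the share was not tested.

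**Figure D2:**
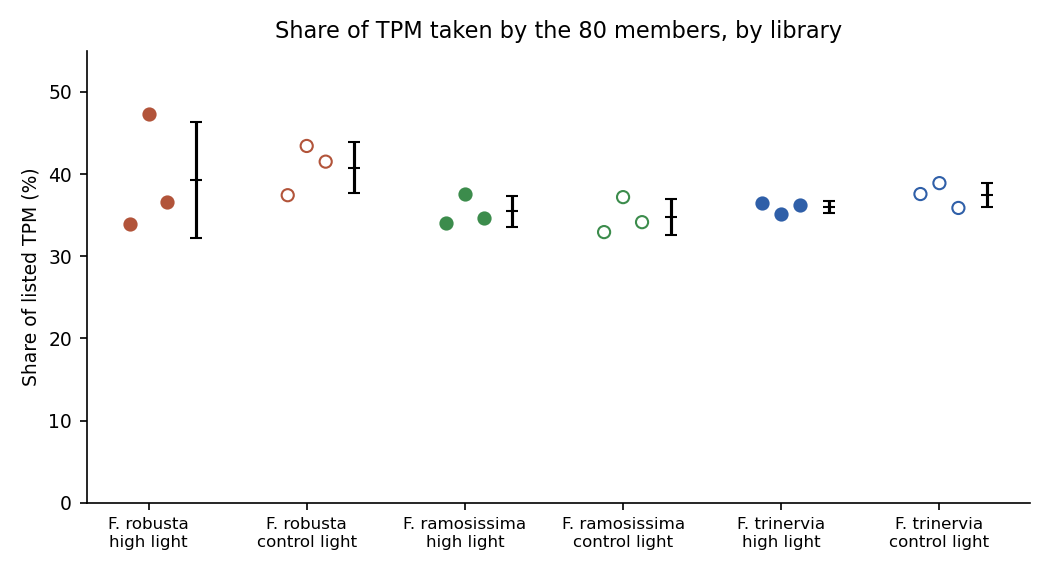
Share of the listed TPM (%) taken by the 80 members in each library, under high light (filled points) and control light (open points) in 3 species, with the mean and SD of 3 libraries as a black bar beside each group. The shares of the light levels overlap in each species, and the F. robusta high light libraries spread most, between 33.9 and 47.3%.

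The share was more concentrated in F. robusta than in the other species. The 5 members with the highest mean of species means took 16.2% ± 1.97 of the listed TPM in F. robusta, 10.2% ± 0.701 in F. ramosissima and 9.27% ± 0.368 in F. trinervia (SD, n = 6 each). Ranked within each species instead, the 5 highest members took 16.2% ± 1.97, 11.1% ± 0.777 and 10.7% ± 0.534. The 20 highest by the mean of species means took 28.4% ± 3.50, 21.1% ± 0.742 and 23.2% ± 0.622 in the same order of species. The number of members needed to reach 50% of the TPM of all 80 was 7 or 8 in the libraries of F. robusta, 10 to 13 in F. ramosissima and 11 or 12 in F. trinervia.

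The difference of −1.49 points in F. trinervia was the sum of opposite differences of its members. Positive ones added up to 3.76 points of the listed TPM and negative ones to −5.25 points. Gene17659 took 2.22% ± 0.171 under high light, against 1.55% ± 0.167 under control light, and Gene14178 took 2.88% ± 0.209, against 3.75% ± 0.188 (SD, n = 3 each). Gene02292 took 1.86% under high light, against 1.27% under control light. Gene31250, named after its values were seen, took 1.28%, against 1.83%.

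The order of the members was shared between the species in part. Spearman's rho across the 80 members was 0.621 between F. trinervia and F. robusta, 0.663 between F. trinervia and F. ramosissima and 0.739 between F. ramosissima and F. robusta. All 3 values are a description over members that share libraries and were chosen by level. Within a species the order was much closer. Between replicates of a light level rho was 0.912 to 0.988 in F. robusta, 0.946 to 0.969 in F. ramosissima and 0.978 to 0.997 in F. trinervia, and between light levels it was 0.921 to 0.979, 0.931 to 0.975 and 0.93 to 0.968. Every pair of libraries from different species gave a lower value, between 0.548 and 0.804.

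The ratio of the highest to the lowest species mean had a median of 2.19 over the members, with 13 members under 1.5, 37 under 2 and 10 at 5 or more. The highest of the species means was in F. robusta for 20 members, in F. ramosissima for 26 and in F. trinervia for 34. At least 2-fold apart in F. trinervia and F. robusta were 16 members with the higher mean in F. trinervia and 11 with the lower. The corresponding counts were 14 and 12 for F. trinervia and F. ramosissima, and 16 and 14 for F. ramosissima and F. robusta. Over libraries, 21 members had all 6 F. trinervia libraries above all 6 of F. robusta and 16 had them all below, while 23 lay wholly above and 23 wholly below F. ramosissima. Over all rows of a mean of at least 1 TPM, 20.8% lay wholly above and 19.1% wholly below F. robusta, and 31.1 and 25.3% wholly above and below F. ramosissima.

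Gene04349 had the largest ratio, 35.0. Its TPM values were 892, 1328 and 1037 under high light and 677, 576 and 719 under control light in F. trinervia, against 27214, 35055 and 31647 under high light and 24881, 30722 and 33569 under control light in F. robusta. Gene22458 came next, with means of 8788 TPM in F. robusta, 2563 TPM in F. ramosissima and 746 TPM in F. trinervia, a ratio of 11.8. Both had their lowest mean in the C4 species and their highest in the C3 species, and the libraries of F. trinervia did not overlap with those of F. robusta for either. The most even members were Gene05405, at 556, 643 and 628 TPM in F. robusta, F. ramosissima and F. trinervia (ratio 1.16), and Gene22158, at 5953, 6342 and 5429 TPM (ratio 1.17). For these, the libraries of the species overlapped.

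Some pairs of members kept a nearly fixed ratio, which was looked for after their values were seen. The TPM of Gene17659 over that of Gene02292 was 1.16 to 1.25 under high light and 1.18 to 1.25 under control light in F. trinervia, and 1.20 to 1.27 and 1.18 to 1.22 in F. robusta. In F. ramosissima it was 1.33 to 1.46 under high light and spread more widely under control light, from 1.18 to 1.77. Gene14178 over Gene23665 gave 1.34 to 1.35 under high light and 1.27 to 1.28 under control light in F. robusta, although in the high light libraries the level of Gene14178 itself ran from 21281 to 47540 TPM. It was wider in F. ramosissima, at 0.954 to 1.22 under high light and 1.08 to 1.18 under control light, and in F. trinervia, at 1.29 to 1.39 and 1.35 to 1.502. The ratio between the pairs moved with light in F. trinervia: Gene17659 over Gene14178 was 0.714 to 0.857 under high light, against 0.370 to 0.461 under control light. In F. robusta it overlapped between light levels, at 0.723 to 1.56 under high light and 0.887 to 1.41 under control light.

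The members lay all over the numbering of the rows, which comes from the deposited table. Of the 80, 41 (51.2%) had a number above 19000, against 49.7% of all rows. Only Gene29055 with Gene29056 and Gene26298 with Gene26299 had neighbouring numbers. Their ratios differed between the species. Gene29055 over Gene29056 averaged 0.0874 under high light and 0.0860 under control light in F. robusta, 1.19 and 1.62 in F. ramosissima, and 0.361 and 0.324 in F. trinervia, with SDs of at most 0.0131 in F. robusta and F. trinervia and at least 0.391 in F. ramosissima. Gene26298 over Gene26299 averaged 0.599 and 0.635 in F. robusta, 3.69 and 2.31 in F. ramosissima, and 0.755 and 0.907 in F. trinervia.

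Replicates of the members were closest in F. trinervia. The median SD of log2(TPM + 1) between replicates was 0.322 under high light and 0.208 under control light in F. robusta, 0.220 and 0.234 in F. ramosissima, and 0.0965 and 0.124 in F. trinervia. In every group it was below the median SD of all rows of at least 5 TPM. That was 0.443 and 0.288 in F. robusta, 0.342 and 0.360 in F. ramosissima and 0.166 and 0.163 in F. trinervia. For rows of 100 to 500 TPM it was 0.327 and 0.299, 0.345 and 0.327, and 0.206 and 0.206 in the same order. Under high light in F. robusta the members were hardly below those rows. The most variable members were Gene21517 and Gene06695, with a mean group SD of 0.493 and 0.478. Gene06695 ran from 282 to 1652 TPM in the high light libraries of F. ramosissima, but only from 2444 to 2556 TPM in those of F. trinervia. The steadiest were Gene23889 and Gene24354, at 0.0895 and 0.0909.

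The response of each member to high light was tested within each species with limma on log2(TPM + 1), with p-values adjusted over all rows tested (Benjamini–Hochberg) and a threshold of 0.05. All 80 members passed the filter of a mean of 1 TPM in every species. In F. trinervia, 21 members (26.2%) rose and 15 (18.8%) fell under high light, and 44 did not pass the test. Over all 14553 rows tested in that species, 6.82% rose and 36.3% fell. The members' median change was −0.00 on the log2 scale, against −0.29 over all rows. In F. robusta and F. ramosissima no member passed the test.

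These shares depended on the scaling of the libraries. TPM is relative to its library's total, and the median row of F. trinervia was lower under high light. After median-ratio scaling, which sets the median row to no change, 31 members rose and 2 fell, against 14.0 and 10.8% of all rows, and the members' median change was 0.34. The 21 members that rose as deposited were all among the 31. Of the 15 that fell, 2 still fell, 4 had a positive value and none rose. Other abundant rows also rose more often than fell. As deposited, of the 124 other rows of at least 500 TPM in F. trinervia, 36 rose and 12 fell (median 0.24). Of 834 rows between 100 and 500 TPM, 244 rose and 143 fell (median 0.15). After median-ratio scaling, 57 of the 124 rose and 2 fell (median 0.58), and 379 of the 834 rose and 40 fell (median 0.49). With that scaling the members rose less often (38.8%) than the 124 (46.0%) or the 834 (45.4%).

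The counts were lower without 5 of the 6 libraries, and so were the shares of all rows. Without 1 library the number that rose was between 8 and 21 and the number that fell between 5 and 19, while 2.18 to 11.8% of all rows rose and 19.6 to 36.3% fell. Leaving out high light 1 gave 10 rises and 7 falls, high light 2 gave 19 and 9, high light 3 gave 9 and 8, control 1 gave 11 and 8, and control 2 gave 8 and 5. Leaving out control 3 gave 21 and 19. Of the 21 rises, 8 passed in all 6 of these fits, as did 5 of the 15 falls. This was not counted over all rows, so the members cannot be compared with other rows here.

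**Figure D3:**
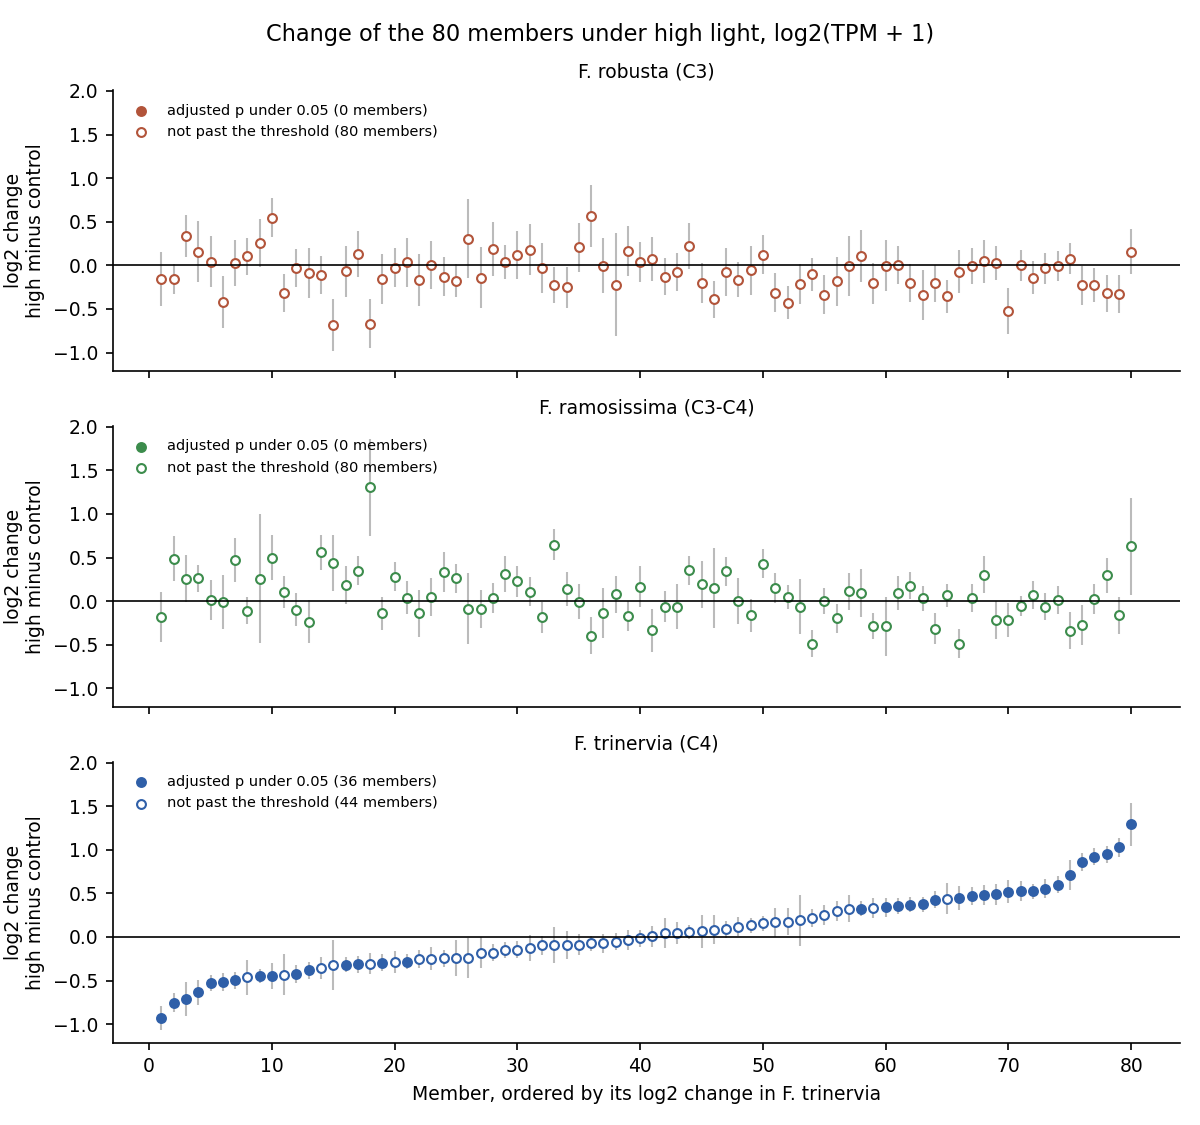
Change of each of the 80 members under high light relative to control light, on the log2(TPM + 1) scale with its standard error, in F. robusta, F. ramosissima and F. trinervia, ordered by the change in F. trinervia in all 3 panels. Filled points passed the threshold of adjusted p (limma): 21 rises and 15 falls in F. trinervia and none in the other species.

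Most changes were below 2-fold. The 21 rises in F. trinervia had a median of 0.52 on the log2 scale (0.33 to 1.29) and the 15 falls a median of −0.45 (−0.28 to −0.93). For all 36, the ranges of the high light and control libraries did not overlap. Counted without a test, 29 members had all high light libraries above all control libraries in F. trinervia (9.69% of all rows did) and 21 had them all below (46.8% of all rows).

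Gene23895 had the largest rise. Its TPM was 1096, 1157 and 1135 under high light, against 373, 381 and 688 under control light in F. trinervia. The groups did not overlap, and control 3 was the highest of the control libraries. The change was 1.29 ± 0.24 (SE) on the log2 scale (limma, adjusted p = 0.00942). In F. ramosissima the same member spread from 828 to 3406 TPM under control light alone, and its change there was 0.63 ± 0.56 (adjusted p = 0.744).

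Gene22768 had the second largest rise, with 1181, 1144 and 1045 TPM under high light, against 549, 502 and 602 TPM under control light in F. trinervia. Every high light library was well above every control library, and the change was 1.03 ± 0.11 (adjusted p = 0.00353). In F. robusta all high light libraries (542, 494 and 496 TPM) lay below all control libraries (558, 626 and 759 TPM), with a change of −0.33 ± 0.22 (adjusted p = 0.665). In F. ramosissima the groups overlapped, at 790 to 1002 TPM under high light and 807 to 1231 TPM under control light.

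The largest falls in F. trinervia were those of Gene02820 and Gene03814. Gene02820 had 3725, 3581 and 4041 TPM under high light, against 7267, 8392 and 6143 TPM under control light. It fell by 0.93 on the log2 scale (SE 0.14, adjusted p = 0.00553). Gene03814 had 2150, 2519 and 2511 TPM under high light, against 3922, 3856 and 4332 TPM under control light, a change of −0.76 ± 0.11 (adjusted p = 0.00523). Both fell without overlap between the groups. In F. ramosissima Gene03814 was at 4890, 5794 and 5317 TPM under high light, against 2545, 4309 and 4988 TPM under control light, where the groups overlapped (0.49 ± 0.26, adjusted p = 0.591).

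**Figure D4:**
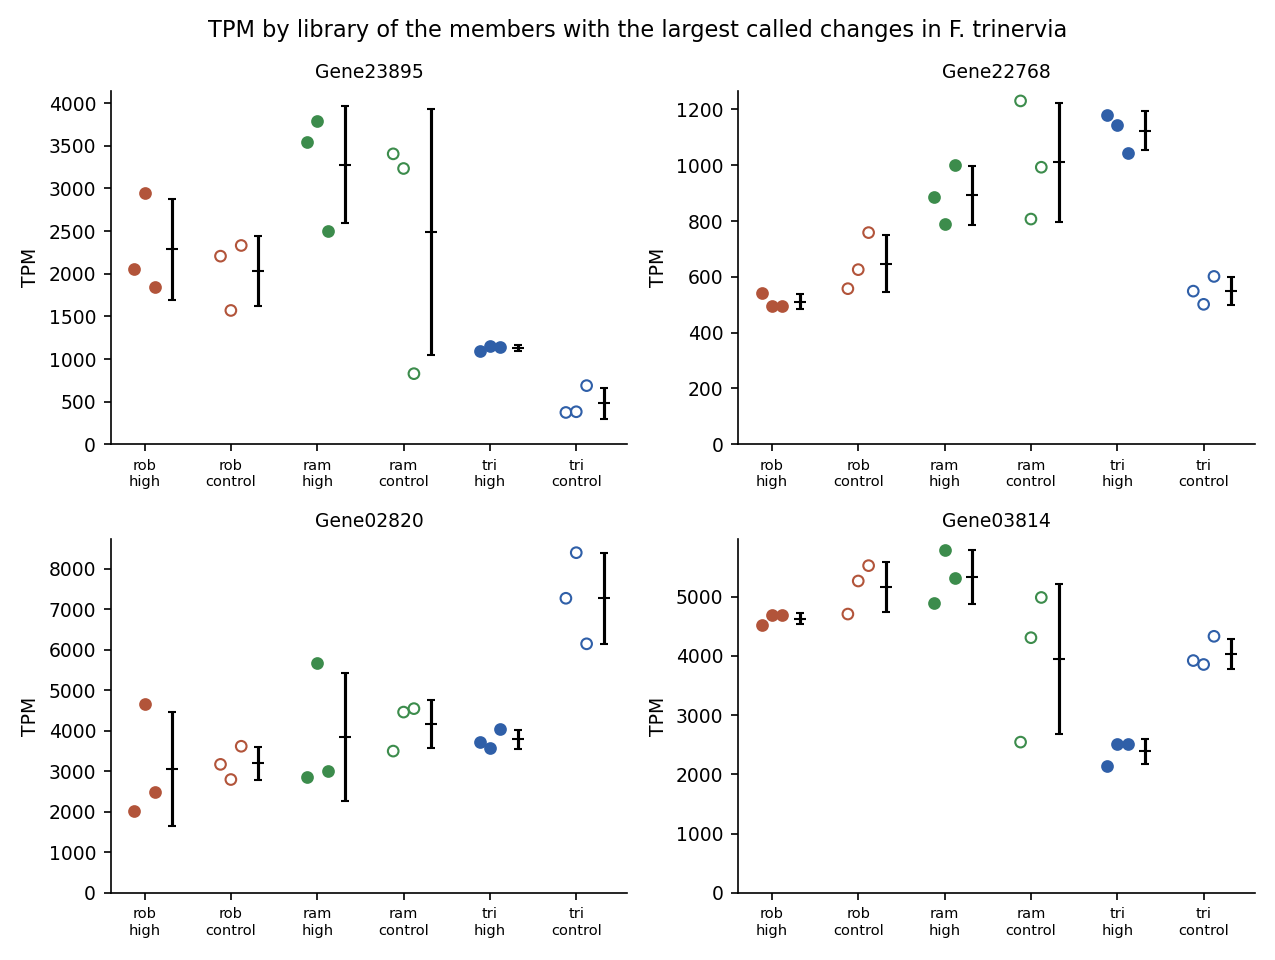
TPM by library of Gene23895, Gene22768, Gene02820 and Gene03814 under high light (filled points) and control light (open points) in F. robusta (rob), F. ramosissima (ram) and F. trinervia (tri), with the mean and SD of 3 libraries as a black bar beside each group. In F. trinervia the high light libraries lie wholly above the control libraries for Gene23895 and Gene22768 and wholly below them for Gene02820 and Gene03814.

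The 5 members with the highest means all passed the test in F. trinervia, in both directions. Gene17659 had 21360, 21529 and 18760 TPM under high light, against 13441, 13453 and 16094 TPM under control light, and it rose by 0.52 (SE 0.12, adjusted p = 0.0146). Gene02292 had 18329, 17154 and 16195 TPM, against 10866, 11442 and 12906 TPM, and rose by 0.56 (SE 0.11, adjusted p = 0.00961). Gene04349, low in this species, had 892, 1328 and 1037 TPM under high light, against 677, 576 and 719 TPM under control light, and rose by 0.71 (SE 0.17, adjusted p = 0.0194). All 3 had every high light library above every control library.

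Gene14178 and Gene23665 moved the other way. Gene14178 had 24929, 28610 and 26283 TPM under high light, against 32820, 36381 and 34935 TPM under control light, and fell by 0.38 (SE 0.10, adjusted p = 0.0214). Gene23665 had 19315, 20548 and 20204 TPM, against 23585, 26989 and 23256 TPM, and fell by 0.29 (SE 0.10, adjusted p = 0.0495). With median-ratio scaling these falls did not pass, at −0.04 (adjusted p = 0.827) for Gene14178 and 0.05 (adjusted p = 0.786) for Gene23665, while the rises of Gene17659, Gene02292 and Gene04349 did (adjusted p = 0.00681, 0.00572 and 0.0104). When 1 library was left out, Gene17659, Gene14178, Gene23665 and Gene04349 no longer passed in at least 1 fit, with adjusted p up to 0.0599, 0.0808, 0.154 and 0.0736. Gene02292 passed in all 6 (adjusted p up to 0.0441). Over all alternatives the adjusted p ran between 0.00021 and 0.0649 for Gene17659, 0.000112 and 0.0514 for Gene02292, 0.000564 and 0.112 for Gene04349, 0.00882 and 0.827 for Gene14178, and 0.022 and 0.786 for Gene23665. By group mean under high light, Gene14178 ranked 2 of all rows of F. trinervia and Gene17659 ranked 3, while under control light they ranked 1 and 6.

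In F. robusta, none of the 80 members passed the test (limma), while 0.0131% of 15305 rows tested did, in either direction. At an unadjusted p under 0.05 there were 4 members, against 10.9% of all rows, and the smallest adjusted p was 0.418. The members' median change was −0.07, against −0.08 over all rows, and their changes ran from −0.68 to 0.57. A single member, Gene17917, had all high light libraries above all control libraries (5.78% of all rows did), and 7 members had them all below (9.91% of all rows). Gene17917 had 914, 1024 and 1103 TPM under high light, against 600, 849 and 648 TPM under control light (0.55 ± 0.22, adjusted p = 0.418). The largest change of the 7 was that of Gene22714, with 724, 616 and 427 TPM, against 765, 834 and 1200 TPM (−0.67 ± 0.28, adjusted p = 0.433).

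In F. ramosissima, again none of the members passed (limma), while 0.0222% of 18043 rows tested did, with 5 members at an unadjusted p under 0.05, against 9.6% of all rows, and a smallest adjusted p of 0.453. The median change was 0.04, against −0.12 over all rows, and 5 members had all high light libraries above all control libraries (4.97% of all rows), against 3 with all below (10.0% of all rows). Gene29056 had 8621, 6606 and 9628 TPM under high light, against 4673, 5885 and 5191 TPM under control light (0.65 ± 0.18, adjusted p = 0.453). Gene09197 had 924, 1141 and 1180 TPM, against 1467, 1649 and 1427 TPM (−0.49 ± 0.17, adjusted p = 0.468), and its groups did not overlap. In F. trinervia it rose (0.44 ± 0.14, adjusted p = 0.0428), but no longer passed in at least 1 fit without 1 library (adjusted p up to 0.135), and the difference between these responses did not pass (0.93 ± 0.30, adjusted p = 0.108). A change that misses the threshold is not shown to be absent: the 95% interval of a member's change had a median half-width of 0.55 in F. robusta and 0.47 in F. ramosissima, against 0.27 in F. trinervia, where the median size of change was 0.32.

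Whether the response to light differed between species was tested directly, as the difference of log2 changes in 1 limma model of the 6 groups with species weights. As deposited, the response in F. trinervia was more positive than in F. robusta for 9 members (11.25%), against 1.62% of all rows tested. It was more negative for 1, against 5.83% of all rows. The gap depended on scaling. After median-ratio scaling 7 members (8.75%) were more positive, against 6.55% of all rows, and 0 more negative, against 7.05%. Against F. ramosissima, as deposited, 3 members were more positive in F. trinervia (0.931% of all rows) and 1 more negative (1.33% of all rows). After median-ratio scaling both counts were 0 (0.888 and 0.999% of all rows). Between F. ramosissima and F. robusta no member differed (limma), while 0.55% of all rows did. At an unadjusted p under 0.05 there were 4 members, against 10.5% of all rows. All 10 members that differed from F. robusta had passed the light test in F. trinervia in the same direction. So had all 4 that differed from F. ramosissima. Each difference contains the F. trinervia change itself, so this is not separate support. The 2 comparisons share the F. trinervia libraries, and 3 members were more positive there than in both other species.

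Gene22768 showed the largest difference from F. robusta among the members that passed. Its response was 1.36 ± 0.20 (SE) higher on the log2 scale (adjusted p = 0.00270), and relative to F. ramosissima it was 1.19 ± 0.24 higher (adjusted p = 0.0211). Gene27209 came next in the comparison with F. robusta, with 785, 705 and 690 TPM under high light, against 391, 363 and 374 TPM under control light in F. trinervia. In F. robusta its high light libraries, at 646, 558 and 574 TPM, lay below its control libraries, at 663, 744 and 821 TPM. The difference of its responses was 1.27 ± 0.18 (adjusted p = 0.00176).

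The single member with a more negative response in F. trinervia than in F. ramosissima was Gene03814, with a difference of −1.24 ± 0.25 (adjusted p = 0.0211). That call was lost without high light 1, 2 or 3 or control 1 of F. ramosissima (adjusted p 0.0549 to 0.0961), and over all alternatives the adjusted p ran between 0.0131 and 0.141. The call of Gene22768 against F. ramosissima was lost without high light 1 or 2 or control 1 or 3 of F. ramosissima (adjusted p 0.0726 to 0.102), which is also the highest over all alternatives, the lowest being 0.0107.

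Of the libraries, high light 2 of F. robusta weighed most on these counts. Without it, 21 members were more positive in F. trinervia than in F. robusta (2.97% of all rows) and 3 more negative (20.7% of all rows). Leaving out high light 1 or 3 or control 1, 2 or 3 of F. robusta gave 3 to 5 more positive and none more negative, against 0.253 to 1.03% and 0.828 to 3.91% of all rows. The 1 more negative member became 0 without high light 2 or control 1 or 2 of F. trinervia (3.92 to 4.66% of all rows). The count became 2 without control 3 of F. trinervia (7.0%) or control 1 of F. ramosissima (5.89%). Against F. ramosissima, the count of more positive members was 0 without high light 1 or 2 or control 1 or 3 of F. ramosissima. In those fits 0.287 to 0.447% of all rows were more positive. Without control 3 of F. trinervia the count was 5 (2.26% of all rows). The count of more negative members was 2 without control 3 of F. trinervia (2.5% of all rows) or control 2 of F. ramosissima (1.17%). Leaving out the last also gave 1 member more positive in F. ramosissima than in F. robusta (0.467% of all rows).

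The direction of the response in F. trinervia went with the level relative to the other species and with the level in F. trinervia itself. Of the 15 members that fell, 13 had a higher mean in F. trinervia than in F. ramosissima and 12 than in F. robusta, with median ratios of 1.76 and 1.77. Of the 21 that rose, 5 had a higher mean in F. trinervia than in F. ramosissima and 10 than in F. robusta, with median ratios of 0.671 and 0.951. Among all 80 members the counts were 41 and 50. Across the members, Spearman's rho of the change in F. trinervia with the ratio of means was −0.448 for F. trinervia over F. ramosissima and −0.321 for F. trinervia over F. robusta (n = 80). With the mean TPM in F. trinervia itself, rho was −0.313. The median TPM there was 5248 for members that fell, 1567 for those that rose and 1522 for those that did not pass. These are descriptions: the change, the ratio and the level share the F. trinervia libraries, and the members were chosen by level. The members counted as rising or falling are those called as deposited. After median-ratio scaling all 21 still rose, but only 2 of the 15 still fell and 4 had a positive value.

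**Figure D5:**
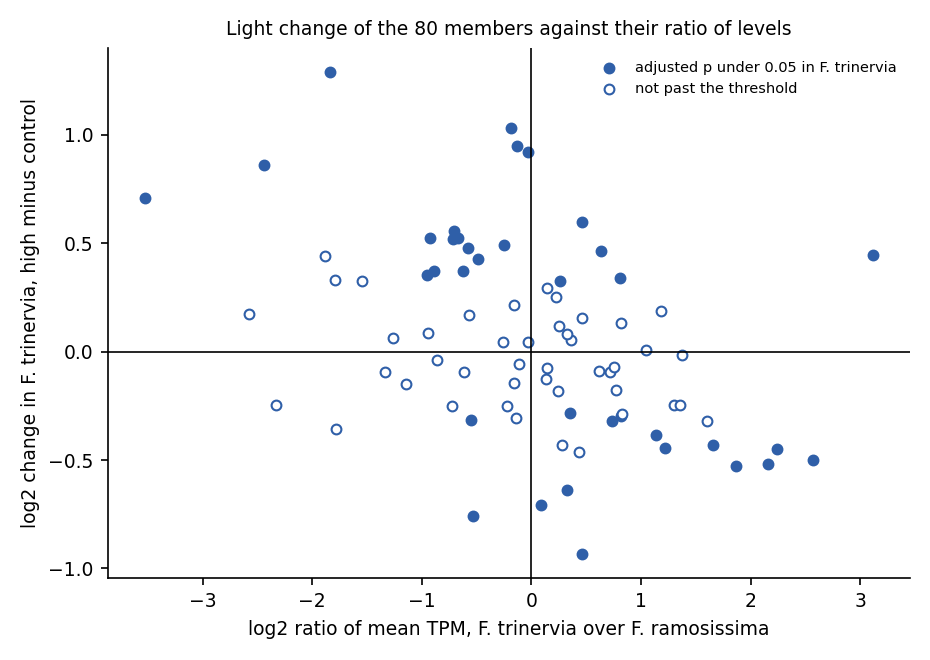
Change of each of the 80 members under high light in F. trinervia (log2 scale, vertical axis) against the log2 ratio of its mean TPM in F. trinervia over that in F. ramosissima (horizontal axis), with filled points for members past the threshold of adjusted p. As deposited, 13 of the 15 filled points below 0 lie to the right of 0. Of the 21 above 0, 5 do, including Gene09197 at a ratio of 8.68.

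The changes of the members in F. trinervia ran weakly opposite to those in the other species. Those in F. ramosissima and F. robusta went together little. Spearman's rho across the 80 members was −0.213 between the changes in F. trinervia and F. robusta, −0.289 between those in F. trinervia and F. ramosissima and 0.0610 between those in F. ramosissima and F. robusta. The members that rose in F. trinervia had a median change of 0.01 in F. ramosissima and −0.03 in F. robusta. Those that fell had 0.19 in F. ramosissima and 0.03 in F. robusta.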

How the data were processed

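The authors deposited 1 table of TPM values for the 18 libraries. Per the labels, reads were paired-end, and the submitters' processing notes name RSEM and edgeR. No source used here names the reference or says how rows were matched between species. Of 30041 rows, 1 ran into the next and was left out.

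Light responses were tested with limma 3.58.1 (R 4.3.3, trend) on log2(TPM + 1), each species alone, over rows of a mean of at least 1 TPM. Differences of responses used 1 model of all libraries with species weights. The scripts were tested on simulated data. Values between species were not rescaled.

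The members and choices were made with earlier results of these data known. Rows named were the 5 highest members, the largest rises, falls, ratios, replicate spreads and differences (1 or 2 each way), the smallest ratios and spreads, and 3 rows on either side of the threshold. Others are said to be named after their values were seen.

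Replicate numbers were not treated as pairs in the main fits. Deviations of same-numbered libraries correlated at 0.643, −0.570 and −0.567 in F. trinervia. They correlated at −0.0901 to 0.188 in F. ramosissima and −0.0797 to 0.151 in F. robusta. Such values cannot show whether samples were paired, and fits with a replicate block are given below. Other scalings, filters, pseudocounts, weights and left-out libraries were tried.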

Additional observations from a re-analysis of the deposited data

Results flagged for a closer look

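The response to high light differed between species for 10 members in F. trinervia relative to F. robusta, 9 more positive (1.62% of all rows) and 1 more negative (5.83%), by a limma test of the difference itself. After median-ratio scaling 7 were more positive, but so were 6.55% of all rows. As deposited, the response differed for 4 members in F. trinervia relative to F. ramosissima, 3 more positive (0.931% of all rows) and 1 more negative (1.33%). The largest were Gene22768 (1.36) and Gene27209 (1.27) relative to F. robusta, and Gene03814 (−1.24) and Gene22768 (1.19) relative to F. ramosissima, all on the log2 scale.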

How the results depend on the processing

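Shares of all rows stand in brackets. With the replicate block, 7 members rose (2.7%) and 3 fell (20.5%) in F. trinervia, 4 were more positive (0.894%) and 0 more negative (4.46%) there than in F. robusta, and 1 was more positive (0.444%) than in F. ramosissima. Without a filter, 18 rose (4.98%) and 8 fell (27.9%) in F. trinervia, and 0 were more positive (0.477%) and 0 more negative (0.354%) than in F. ramosissima. A filter at 5 TPM gave 5 more positive than in F. ramosissima (1.9%). With median-ratio scaling 31 rose (14.0%) and 2 fell (10.8%) in F. trinervia. Relative to F. robusta 7 were more positive there (6.55%) and 0 more negative (7.05%). Relative to F. ramosissima 0 were more positive (0.888%) and 0 more negative (0.999%). With this scaling Gene23665 had a change of 0.051, against a fall as deposited. Quantile normalization gave 3 more negative than in F. robusta (5.96%) and 0 than in F. ramosissima (1.03%). Without weights, 5 were more positive than in F. robusta (0.809%), 0 more negative (2.29%), and 5 more positive than in F. ramosissima (1.24%), and a single model of all libraries, unweighted, gave 10 rises (1.54%) and 1 fall (5.39%) in F. trinervia and 1 fall in F. ramosissima (1.55%). An alternative added after seeing the data, without high light 2 and control 3 of F. trinervia, gave 26 rises (15.7%) and 23 falls (43.4%). Leaving out 1 library gave 8 to 21 rises (2.18 to 11.8%) and 5 to 19 falls (19.6 to 36.3%) in F. trinervia. Relative to F. robusta, 3 to 21 were more positive there (0.253 to 3.91%) and 0 to 3 more negative (0.828 to 20.7%). Relative to F. ramosissima, 0 to 5 were more positive (0.287 to 2.26%) and 0 to 2 more negative (0.442 to 2.5%). In F. ramosissima relative to F. robusta, 0 to 1 were more positive (0.0369 to 0.467%). The cause of these shifts was not tested. A threshold of 250 TPM gave 170 members and of 1000 TPM gave 44. For the named members, 246 of 291 values under an alternative kept their direction and side of the threshold, 44 kept only the direction and 1 changed sign. Read depth is unknown, so how far it limits low libraries cannot be given.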
